A study of Bos taurus with 31 samples.

Results

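Liver gene expression after 16 weeks of a glyphosate-contaminated ration (GLY) was compared with that after a control ration (CON) in lactating German Holstein cows that received a low concentrate feed proportion (CFP), 30% of the diet (LC). The comparison held 15 of the 31 cows with liver RNA sequencing, 7 in GLY_LC and 8 in CON_LC, chosen by the feeding group in their labels, and 15278 of the 24616 genes, those with at least 20 reads summed over these 15 cows. GLY_LC cows were fed straw, peas and wheat grain that carried residues of a sprayed glyphosate formulation with its co-formulants, so glyphosate and co-formulants cannot be told apart, and the CON_LC ration held background traces of glyphosate. The other 16 cows, 8 in GLY_HC and 8 in CON_HC, received the same contrast with a high CFP (HC). Each cow gave 1 puncture biopsy and 1 library, the samples of a further GLY_LC cow were lost, and RNA from before the trial was not analysed here.

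Glyphosate blocks an enzyme of aromatic amino acid synthesis in plants and many microbes that animals lack. The liver is the first large organ that substances absorbed from the gut reach, and its hepatocytes break down foreign substances, turn amino acids into glucose and urea, make cholesterol and fatty acids, and secrete most plasma proteins. In ruminants most glucose is made by the liver rather than absorbed, mainly from propionate and amino acids.

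Per cow, 12594557 to 25624554 reads were assigned to genes in CON_LC and 19071749 to 36675542 in GLY_LC. The mean of log2 total reads was 0.21 higher in GLY_LC (exact two-sided permutation test of the difference in means, p = 0.28), while the difference of the medians was -0.12. Expression is given in counts-per-million of the reads assigned to genes (CPM), scaled by TMM factors. All 8 hepatocyte markers were detected in every group, with a summed level of 125862 to 208651 CPM in CON_LC and 155207 to 201285 CPM in 6 GLY_LC cows. The seventh GLY_LC cow, number 912, had 105637 CPM. Of this sum, 42276 CPM came from the fibrinogen gene FGB, which was at 33414 CPM or less in each of the other cows. ALB, the gene of serum albumin, was at 42925 CPM in cow 912 and at 74670 or more in each of the other 14 cows.

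3 libraries stood apart. In a principal component analysis of 11832 genes, the first component held 30% of the variance and the second 16%. CON_LC cows 103 and 166 and GLY_LC cow 912 lay at one end of the first component, and cow 912 alone at the end of the second. Of 16 markers of intestinal epithelium, 13 had an entry in the deposited table, and CDX1, CDX2 and MUC2 had none under their symbols. The 13 summed to 504 CPM in cow 912, against 60.02 to 90.9 in CON_LC and 64.9 to 95.4 in the other 6 GLY_LC cows. Only 6 of the 13 passed the read filter without cow 912. Summed smooth muscle markers (5 of 6) reached 1622 CPM in cow 912 and at most 403, in CON_LC cow 166, elsewhere. Those of B lymphocytes and plasma cells (6 of 6) were at 161 CPM in cow 912 and at most 33.7 in the other cows. Stellate cell and fibroblast markers (9 of 9) summed to 2189 CPM in CON_LC cow 103 and 479 in cow 166, and to at most 337 in any other cow. In a bulk biopsy, more cells of a type and more RNA per cell cannot be told apart.

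**Figure D1:**
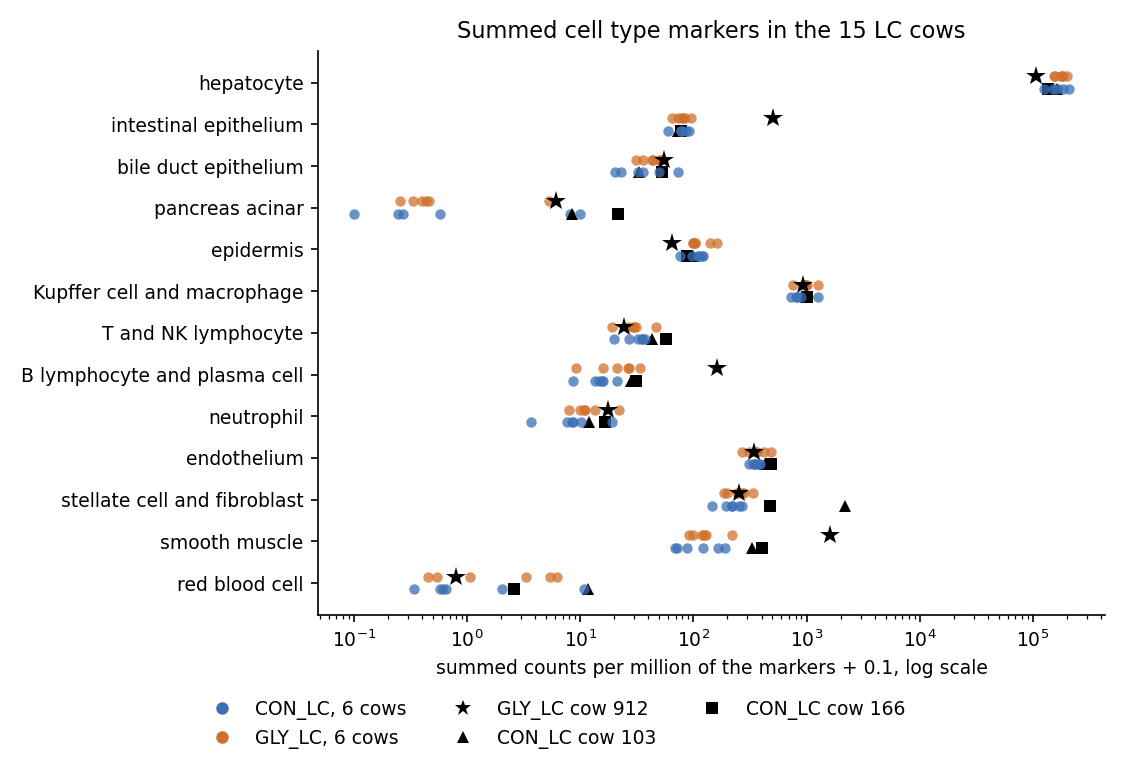
Summed counts-per-million (plus 0.1, log scale) of 13 lists of cell type markers in each of the 15 LC cows. Circles are cows of CON_LC (blue) and GLY_LC (orange), and black symbols mark GLY_LC cow 912 and CON_LC cows 103 and 166. Cow 912 lies apart from all other cows for intestinal epithelium (504 CPM), smooth muscle (1622 CPM) and B lymphocyte and plasma cell markers (161 CPM), and cow 103 for stellate cell and fibroblast markers (2189 CPM). Only 6 of the 13 intestinal epithelium markers passed the read filter without cow 912.

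Between GLY_LC and CON_LC, 10 genes (0.0655% of those tested) passed both thresholds of the study in edgeR's quasi-likelihood test, p below 0.05 before and below 0.1 after Benjamini-Hochberg adjustment, and are named called genes here. Of these, 9 (0.0589%) rose in GLY_LC and 1 (0.00655%), GPT2, fell. They include 3 of the intestinal epithelium markers and the gut smooth muscle gene ACTG2, and for each of the 9 cow 912 was the highest of the 15 cows. FABP2, BCO1, OLFM4 and SMIM24 passed the read filter only through this cow. An unadjusted p under 0.05 was reached by 862 genes (5.64%), 570 of them higher (3.73%) and 292 lower (1.91%) in GLY_LC, and the median log2 fold change of all genes was -0.00267. Cow 912 was the highest cow for 460 of the 570 higher genes and for 2824 of all genes tested. Without cow 912, 0 of 15028 genes were called (smallest adjusted p = 1, edgeR; 1 gene, 0.00665%, in DESeq2) and 452 (3.01%) had an unadjusted p under 0.05, 190 higher (1.26%) and 262 lower (1.74%). Without CON_LC cows 103 and 166, 0 of 15047 were called by edgeR and 886 (5.89%) had an unadjusted p under 0.05, and without all 3 of these cows 0 of 14766 were called and 393 (2.66%) had. Of the 862 genes, 303 were also under 0.05 in the same direction without cow 912.

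Of the 9 genes that rose, 3 were nearly without reads outside cow 912. FABP2, the intestinal fatty acid binding protein, had 5636 reads in cow 912, 1 in the other 6 GLY_LC cows together and 2 in the 8 CON_LC cows together. BCO1, which cleaves beta-carotene in enterocytes, had 1282 reads in cow 912, 0 in the other 6 GLY_LC cows and 2 in CON_LC. OLFM4, a glycoprotein of intestinal crypt cells, had 315 reads in cow 912, 5 in the other 6 GLY_LC cows and 3 in CON_LC. With so few control reads, a fitted fold change of these genes is no measure of its size. At most 5, 2 and 2 reads of FABP2, BCO1 and OLFM4 were found in any HC cow.

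ACTG2, the gamma actin of gut smooth muscle, was at 354 CPM in cow 912, between 0.235 and 2.01 CPM in the other GLY_LC cows (median 1.48) and between 0.394 and 1.91 CPM in CON_LC (median 0.923). With all cows, the log2 fold change of ACTG2 was 5.70 with a standard error (SE) of 1.10 (adjusted p = 0.0827, edgeR) and 0.40 (SE 0.39, unadjusted p = 0.313) without cow 912. S100G, the vitamin D-dependent calcium carrier calbindin of the gut, was at 176 CPM in cow 912, 0.106 to 2.88 CPM in the other GLY_LC cows and 0.121 to 1.45 CPM in CON_LC. The other 6 GLY_LC cows and CON_LC thus overlapped for both genes, with log2 fold changes of 4.86 (adjusted p = 0.0827, edgeR) and, without cow 912, 0.67 (unadjusted p = 0.173) for S100G. ENSBTAG00000047700, which has no symbol, was at 149 CPM in cow 912 and at 0.3505 to 2.23 CPM in the other 14 cows (log2 fold change 4.77, adjusted p = 0.0827, edgeR). SMIM24, a small membrane protein, and ATP6V1C2, a subunit of the proton pump V-ATPase, were at 17.7 and 29.6 CPM in cow 912 and at no more than 0.144 and 0.266 CPM in another LC cow. CCL24, a chemokine that attracts eosinophils, was at 44.2 CPM in cow 912, 0.383 to 2.98 CPM (median 0.727) in the other GLY_LC cows and 0.1701 to 1.14 CPM (median 0.443) in CON_LC. It is the only one of the 6 called genes still tested without cow 912, GPT2 aside, that had an unadjusted p under 0.05 there (log2 fold change 1.07, SE 0.47, unadjusted p = 0.0305).

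**Figure D2:**
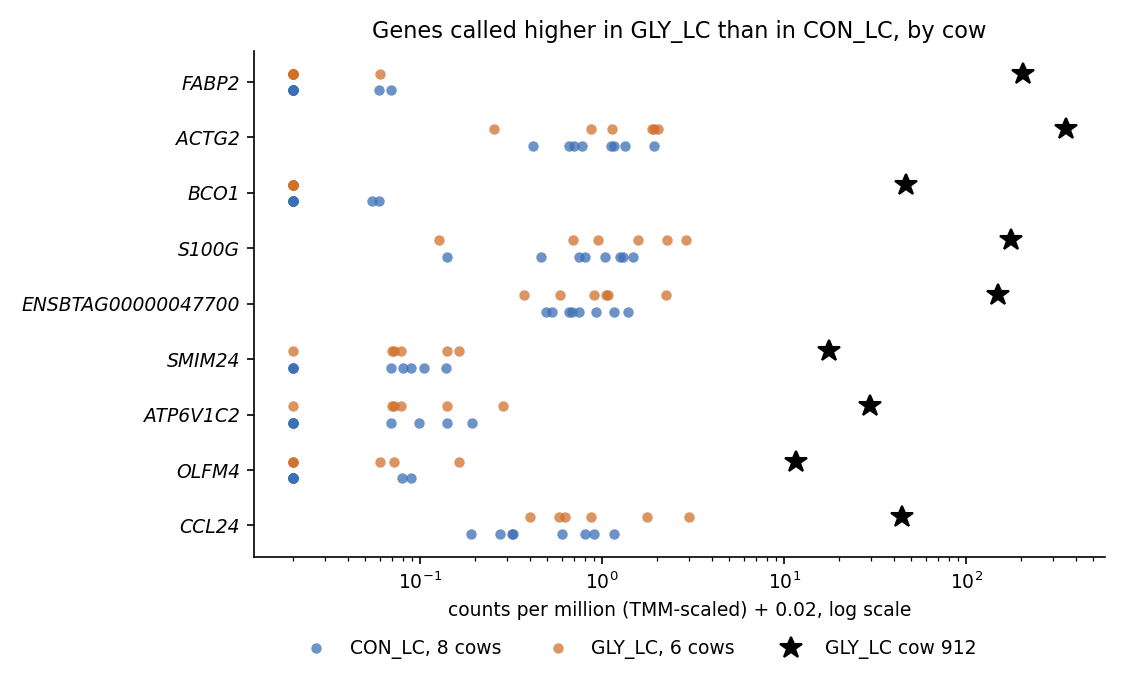
Level of the 9 genes called higher in GLY_LC in each of the 15 LC cows, in counts-per-million plus 0.02 on a log scale. Blue circles are the 8 CON_LC cows, orange circles 6 GLY_LC cows and the black star GLY_LC cow 912, which lies above all other cows for each gene, for example at 206 CPM for FABP2 and 11.5 CPM for OLFM4.

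Of the 13 intestinal epithelium markers with reads, 7 (FABP2, BCO1, OLFM4, MUC13, KRT20, SI and REG4) passed the read filter only through cow 912, so counts and medians over all 13 rest on that cow and are not given. Over the other 6, tested without cow 912, 1 had an unadjusted p under 0.05 and was higher, against 1.26% of all genes, and the median log2 fold change was 0.16. VIL1, which bundles actin in microvilli, was at 29.4 CPM in cow 912 and at 0.4999 to 1.97 CPM in the other GLY_LC cows, and GUCY2C, the guanylin receptor, was at 6.98 CPM against 0.601 to 1.58. MUC13 had 686 reads in cow 912 and 2 in the CON_LC cows together, KRT20 553 and 0, the brush border enzyme SI 90 and 0, and REG4 64 and 1. TFF3, a mucosal repair peptide, was at 8.44 CPM in cow 912, at 0.1001 to 1.73 CPM (median 0.552) in the other GLY_LC cows and at 0.0425 to 0.666 CPM (median 0.119) in CON_LC. It was the 1 marker under 0.05 without cow 912 (log2 fold change 1.57, SE 0.60, unadjusted p = 0.0132, higher in GLY_LC), although the groups overlapped. LGALS4 (log2 fold change 0.32, unadjusted p = 0.0963), CDH17 (0.22, unadjusted p = 0.407) and the glucose transporter SLC5A1 (-0.29, unadjusted p = 0.251) were read in all 15 livers and missed the threshold. Among the 5 smooth muscle markers, 3 had an unadjusted p under 0.05 and were higher, against 3.73% of all genes (median log2 fold change 1.27). MYH11, the smooth muscle myosin heavy chain, was at 738 CPM in cow 912 and at 26.4 to 60.9 CPM in the other 14 cows. The values of CNN1 in cow 912 and at most elsewhere were 124 and 4.85 CPM, and those of TAGLN 171 and 31.6 CPM. Without cow 912, 0 of the 5 were under 0.05 and the median was -0.18.

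GPT2 encodes the mitochondrial alanine aminotransferase, which moves the amino group between alanine and glutamate and so feeds alanine carbon into glucose production. Its level was 5.69 to 13.6 CPM (median 9.38) in GLY_LC and 12.9 to 26.3 CPM (median 16.8) in CON_LC. 5 of the 7 GLY_LC cows, cow 912 among them with 7.198 CPM, lay below all CON_LC cows, so the groups overlapped only at one end. GPT2 differed by -0.88 on the log2 scale (SE 0.19, adjusted p = 0.0861, edgeR), with means of 9.86 ± 2.96 CPM (SD, n = 7) and 18.2 ± 5.24 CPM (SD, n = 8). Without cow 912 it was -0.81 (SE 0.19, unadjusted p = 0.000244, adjusted p = 1), and without cow 912 and CON_LC cows 103 and 166 it was -0.83 (SE 0.21, unadjusted p = 0.000582). Under HC the order was the opposite, with 9.72 to 20.8 CPM (median 14.04) in GLY_HC and 7.25 to 13.9 CPM (median 10.5) in CON_HC (log2 fold change 0.45, SE 0.18, unadjusted p = 0.0185). The interaction of GLY with CFP was -1.33 on the log2 scale (SE 0.26, unadjusted p = 1.60e-05), but its adjusted p of 0.245 (edgeR) missed the threshold. Of the 4 groups, CON_LC had the highest median and GLY_LC the lowest. Over 27 alternative settings of the analysis the log2 fold change of GPT2 lay between -0.98 and -0.78, and it was called in 8 of them, with adjusted p values from 0.0283 to 1.

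**Figure D3:**
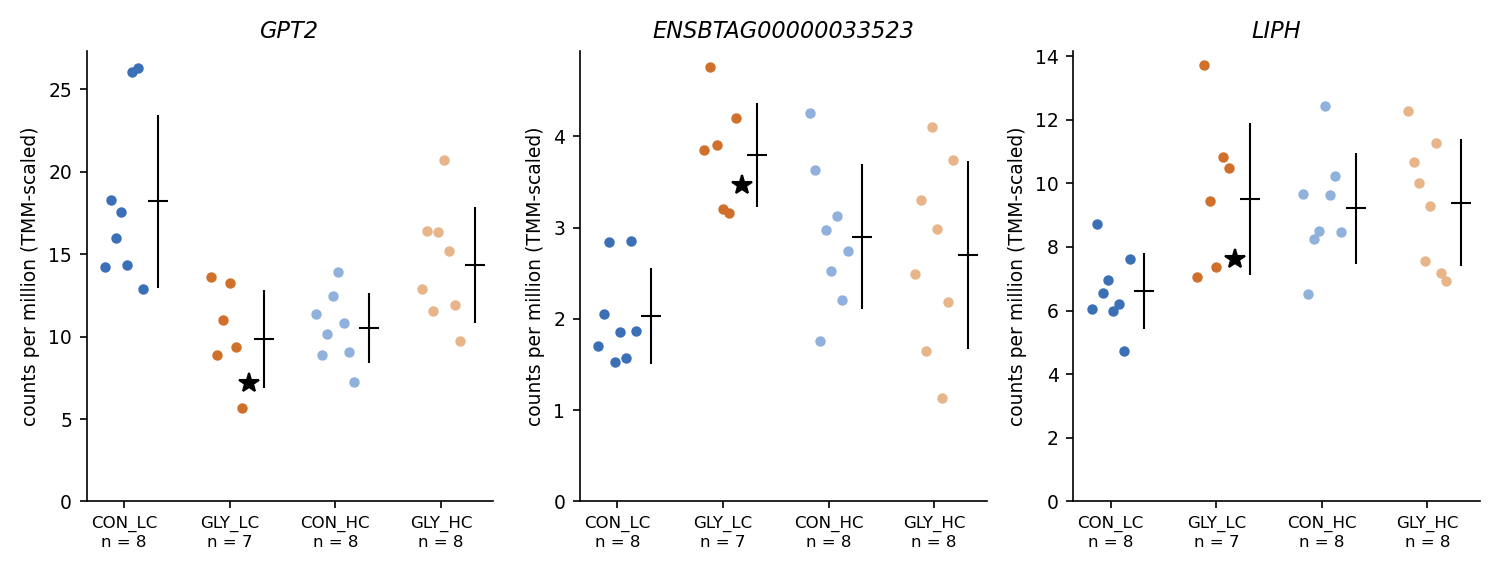
Level of GPT2, ENSBTAG00000033523 and LIPH in each cow of the 4 feeding groups, in counts-per-million. Points are cows, the black star is GLY_LC cow 912, and the dash and line beside the points give the mean and SD of the group. For GPT2 the GLY_LC cows lie at 5.69 to 13.6 CPM and the CON_LC cows at 12.9 to 26.3 CPM, and for ENSBTAG00000033523 all GLY_LC cows lie above all CON_LC cows.

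Of the 4 alanine and aspartate transaminases, GPT2 alone had an unadjusted p under 0.05 and was lower, against 1.91% of all genes. The median log2 fold change of the 4 was -0.24. The cytosolic alanine aminotransferase GPT was at 0.0501 to 1.02 CPM in GLY_LC and 0.213 to 1.69 CPM in CON_LC (log2 fold change -0.34, SE 0.46, unadjusted p = 0.462). The cytosolic aspartate aminotransferase GOT1 had the log2 fold change 0.019 (SE 0.26, unadjusted p = 0.941) and the mitochondrial GOT2 one of -0.14 (SE 0.13, unadjusted p = 0.283). GOT2 was at 233 CPM in cow 912 and at 413 to 591 CPM in the other GLY_LC cows, which covered the CON_LC range of 460.4 to 578 CPM.

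Among 35 further genes of amino acid breakdown and synthesis, 3 had an unadjusted p under 0.05, all lower in GLY_LC, against 1.91% of all genes (median log2 fold change -0.06). PSPH, which releases serine in the last step of its synthesis, was at 5.11 to 19.4 CPM (median 8.61) in GLY_LC and 8.71 to 72.6 CPM (median 12.8) in CON_LC, where cow 260 held the highest value and without which the log2 fold change was -0.58 (unadjusted p = 0.1496). PHGDH, which starts serine synthesis, was at 56.4 to 172 CPM against 101 to 209.5 CPM, and SHMT2, which makes glycine from serine in mitochondria, at 27.9 to 79.3 CPM against 63.1 to 88.8 CPM. The groups overlapped for all 3 genes, and cow 912 was the lowest cow for PHGDH (56.4 CPM) and SHMT2 (27.9 CPM). Their log2 fold changes were -1.20 (SE 0.45, unadjusted p = 0.0132), -0.41 (0.19, unadjusted p = 0.0345) and -0.36 (0.16, unadjusted p = 0.0275), with unadjusted p = 0.02105, 0.105 and 0.0824 without cow 912. Under HC, PHGDH (log2 fold change 0.37, unadjusted p = 0.0472) and SHMT2 (0.34, unadjusted p = 0.03301) were higher in GLY_HC, and PSPH had a log2 fold change of 0.74 (unadjusted p = 0.101). The interaction had unadjusted p values of 0.00447, 0.00496 and 0.00306 for PSPH, PHGDH and SHMT2, none of which passed the adjustment.

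For 2 genes of amino acid supply, the sign of the difference turned when cow 912 was left out. ASNS, the asparagine synthetase, was at 51.04 CPM in cow 912, at 7.31 to 9.18 CPM (median 8.22) in the other GLY_LC cows and at 6.76 to 20.3 CPM (median 12.9) in CON_LC. SLC7A5, the light chain of the transporter LAT1 for large neutral amino acids, was at 8.81 CPM in cow 912, 0.294 to 0.638 CPM (median 0.406) in the other GLY_LC cows and 0.468 to 1.85 CPM (median 0.8397) in CON_LC. The other 6 GLY_LC cows thus lay in the lower part of the CON_LC range or below it, and cow 912 above it, for both genes. The log2 fold change of ASNS was 0.14 (SE 0.33, unadjusted p = 0.663) with cow 912 and -0.66 (0.19, unadjusted p = 0.001905) without it. That of SLC7A5 was 0.69 (0.56, unadjusted p = 0.234) with and -1.21 (0.35, unadjusted p = 0.00181) without the cow. Of the 21 amino acid and peptide transporters, 0 had an unadjusted p under 0.05 with all cows (median log2 fold change 0.06). Without cow 912 the peptide transporter SLC15A1 was higher (log2 fold change 0.82, unadjusted p = 0.0453), against 1.26% of all genes, and SLC7A5 lower, against 1.74%. In the urea cycle, 1 of 8 genes had an unadjusted p under 0.05 and was lower in GLY_LC, against 1.91% of all genes. It was the mitochondrial ornithine carrier SLC25A15 (log2 fold change -0.48, SE 0.18, unadjusted p = 0.0124), and the median of the list was -0.08.

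The study names 2 genes without a symbol for this comparison, ENSBTAG00000003492 and ENSBTAG00000033523. ENSBTAG00000033523 was at 3.16 to 4.76 CPM (median 3.85) in GLY_LC and 1.53 to 2.85 CPM (median 1.86) in CON_LC. It was the 1 gene (0.00655%) for which all GLY_LC cows lay above all CON_LC cows. There was no gene (0%) for which all lay below, and these counts were not tested against chance. The log2 fold change of ENSBTAG00000033523 was 0.89 ± 0.21 (SE, adjusted p = 0.143, edgeR), which missed the threshold, and 0.91 (SE 0.22, unadjusted p = 0.0002599) without cow 912. ENSBTAG00000033523 was called by DESeq2 with all 31 cows (adjusted p = 0.0837) and with the 15 LC cows (adjusted p = 0.00361). In a fit added after the data were seen, on the LC cows without cow 912, DESeq2 called it too (adjusted p = 0.0176). Under HC its level was 1.13 to 4.11 CPM in GLY_HC and 1.76 to 4.26 CPM in CON_HC, ranges that cover most values of both LC groups (log2 fold change -0.097, unadjusted p = 0.637).

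ENSBTAG00000003492 was at 186 CPM in cow 912, at 0.235 to 19.4 CPM (median 0.888) in the other GLY_LC cows, where cow 905 held the highest value, and at 0.158 to 0.789 CPM (median 0.468) in CON_LC. Cows with a high level also occurred under HC, where it reached 26.8 CPM in GLY_HC and 27.9 CPM in CON_HC. Its log2 fold change was 5.84 ± 1.40 (SE; adjusted p = 0.146, edgeR) with all cows and 2.98 (1.15, unadjusted p = 0.0151) without cow 912. DESeq2 called 4 genes (0.0262%) with all 31 cows, namely ENSBTAG00000003492 (adjusted p = 0.00182), ENSBTAG00000033523, GPT2 (adjusted p = 0.0283) and RAD21L1 (adjusted p = 0.0746). With the 15 LC cows it called 2 genes (0.0131%), ENSBTAG00000003492 (adjusted p = 0.00268) and ENSBTAG00000033523. With the LC cows without cow 912, DESeq2 did not call ENSBTAG00000003492 (adjusted p = 0.9999).

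Without cow 912, 3 genes (0.0200%) had all GLY_LC cows above all CON_LC cows and 1 gene (0.00665%) had all below. These counts were not tested against chance. The genes are named here because the values of the groups did not overlap. Beside ENSBTAG00000033523 these were ENSBTAG00000022880, with 0.265 to 0.766 CPM against 0.0788 to 0.245 CPM, and GLE1, a factor of mRNA export, with 11.04 to 12.2 CPM against 7.82 to 11.03 CPM. SLC5A6, the transporter of the vitamins biotin and pantothenate, was at 17.6 to 21.9 CPM in these 6 GLY_LC cows and 22.3 to 27.8 CPM in CON_LC. Their log2 fold changes without cow 912 were 1.28 (SE 0.33), 0.23 (0.08) and -0.34 (0.15) for ENSBTAG00000022880, GLE1 and SLC5A6, each with an adjusted p of 1 (edgeR).

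Of the genes at a mean of at least 1 CPM, the 8 with the smallest unadjusted p in each direction without cow 912 were taken as the leading genes of the other 14 cows, with none of them passing the adjustment. On the higher side stood ENSBTAG00000033523, TWNK, RAD21L1, LIPH, FBXO4, SERGEF, PTPN18 and C4BPB. TWNK, the helicase of mitochondrial DNA, was at 28.3 to 36.8 CPM (median 32.2) in the 6 GLY_LC cows and 18.9 to 30.4 CPM (median 24.95) in CON_LC (log2 fold change 0.37, SE 0.091, unadjusted p = 0.000321), and at 21.4 CPM in cow 912. RAD21L1, a cohesin subunit known from meiosis, was at 11.999 to 21.5 CPM in these 6 cows and 8.47 to 14.7 CPM in CON_LC (0.56, SE 0.14, unadjusted p = 0.000422), and at 49.7 CPM in cow 912. The lowest GLY_LC values of both genes lay within the CON_LC range.

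LIPH, a phospholipase of the cell surface that makes lysophosphatidic acid, was at 7.06 to 13.7 CPM in the 6 GLY_LC cows, 7.64 CPM in cow 912 and 4.74 to 8.72 CPM in CON_LC, with a log2 fold change of 0.52 (SE 0.15, unadjusted p = 0.00165) with all cows and 0.58 (0.16, unadjusted p = 0.000855) without cow 912. FBXO4, a substrate receptor of a ubiquitin ligase, was at 9.72 to 21.96 CPM in GLY_LC and 8.85 to 12.3 CPM in CON_LC (0.36, SE 0.10, unadjusted p = 0.00146 without cow 912). The values without cow 912 of SERGEF, a regulator of secretion, were 2.504 to 3.904 CPM against 0.957 to 2.81 CPM (0.61, SE 0.18, unadjusted p = 0.00216). PTPN18, a tyrosine phosphatase, was at 9.41 to 17.5 CPM in the 6 cows, 4.896 CPM in cow 912 and 4.65 to 12.7 CPM in CON_LC (0.57, SE 0.17, unadjusted p = 0.00222). For TWNK and PTPN18 cow 912 lay within the CON_LC range, and for RAD21L1 and FBXO4 above all other cows.

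On the lower side without cow 912 stood, among others, GPT2, SLC12A4, THBS4, CBX6, SLC7A5, ASNS and NR4A1. SLC12A4, a potassium chloride cotransporter, was at 6.71 to 10.7 CPM (median 9.21) in the 6 GLY_LC cows and 9.57 to 12.5 CPM (median 11.8) in CON_LC (-0.35 on the log2 scale, SE 0.095, unadjusted p = 0.0008702). CBX6, a chromatin protein of the Polycomb group, was at 0.794 to 1.87 CPM and 1.03 to 2.97 CPM (-0.71, SE 0.21, unadjusted p = 0.00163). Some of these genes were highest in CON_LC cows 103 and 166. NR4A1 was at 3.39 CPM in cow 103 and 4.68 CPM in cow 166, and its log2 fold change was -0.65 (unadjusted p = 0.0677, edgeR) without cows 912, 103 and 166. THBS4, a matrix glycoprotein, was at 49.4 CPM in CON_LC cow 103 and 3.30 CPM in cow 166, with a CON_LC median of 0.0512 CPM. Its log2 fold change was 0.55 (unadjusted p = 0.631) without cows 912, 103 and 166.

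Acute phase proteins are plasma proteins, such as haptoglobin, fibrinogen and serum amyloid A, whose synthesis in the liver is raised by inflammatory cytokines. Of 20 acute phase genes, 11 had an unadjusted p under 0.05, all higher in GLY_LC, against 3.73% of all genes, with 0 called and a median log2 fold change of 0.55. The 11 were HP, LBP, SERPINA3, SAA4, A2M, FGG, ITIH4, CP, FGA, FGB and CRP. Without cow 912, 6 of the 20 were under 0.05 and higher, against 1.26% of all genes, and the median was 0.40. Without cow 912 and CON_LC cows 103 and 166, 1 was higher (FGG, log2 fold change 0.44, unadjusted p = 0.0248; 1.37% of all genes) and 1 lower (ITIH3, -0.47, unadjusted p = 0.0181; 1.29%), and the median was 0.32. Without cows 103 and 166 alone, 7 were higher and 1 lower, against 5.89% of all genes in either direction.

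HP, haptoglobin, which binds free hemoglobin, was at 19503 CPM in cow 912, 9.75 to 1400 CPM (median 216) in the other GLY_LC cows and 16.6 to 688 CPM (median 54.9) in CON_LC. Its log2 fold change was 4.24 (SE 1.35, unadjusted p = 0.00381) with all cows and 1.47 (1.12, unadjusted p = 0.198) without cow 912, when the groups overlapped over the whole CON_LC range. LBP, which binds bacterial lipopolysaccharide, was at 1642 CPM in cow 912, 72.2 to 519.7 CPM (median 274) in the other GLY_LC cows and 106 to 245 CPM (median 136) in CON_LC, and its log2 fold change was 1.63 (SE 0.47, unadjusted p = 0.00174) with and 0.89 (0.41, unadjusted p = 0.0365) without the cow. SERPINA3, a protease inhibitor, was at 310.1 to 2230 CPM (median 777) in GLY_LC and 184 to 585 CPM (median 426) in CON_LC (log2 fold change 1.14, SE 0.40, unadjusted p = 0.00846). It belongs to a family of near-identical bovine genes, so its reads are uncertain, as are those of the serum amyloid A genes, of which SAA4 was at 43.8 to 488.8 CPM against 38.8 to 161 CPM (0.99, SE 0.43, unadjusted p = 0.0274).

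The 3 fibrinogen chain genes, whose protein forms the fibrin clot, were among the 6 under 0.05 without cow 912. FGB was at 42276 CPM in cow 912, 14752 to 33414 CPM (median 24103) in the other GLY_LC cows and 16030 to 21907 CPM (median 18860) in CON_LC, so that the GLY_LC range enclosed the CON_LC range. The log2 fold changes of FGA, FGB and FGG were 0.55, 0.54 and 0.68 with all cows (unadjusted p = 0.00359, 0.00408 and 0.00106) and 0.36, 0.40 and 0.47 without cow 912 (unadjusted p = 0.0253, 0.0207 and 0.00751). Under HC, the same 3 genes had log2 fold changes of -0.18, -0.20 and -0.20, and 0 of the 20 acute phase genes had an unadjusted p under 0.05 (median -0.08). Neutrophil markers, 5 of 6 tested, summed to 3.54 to 18.8 CPM in CON_LC, 7.79 to 21.8 CPM in 6 GLY_LC cows and 17.4 CPM in cow 912, and Kupffer cell and macrophage markers (10 of 10) to 728 to 1250, 753 to 1274 and 937 CPM. Their part in the acute phase values was not tested.

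**Figure D4:**
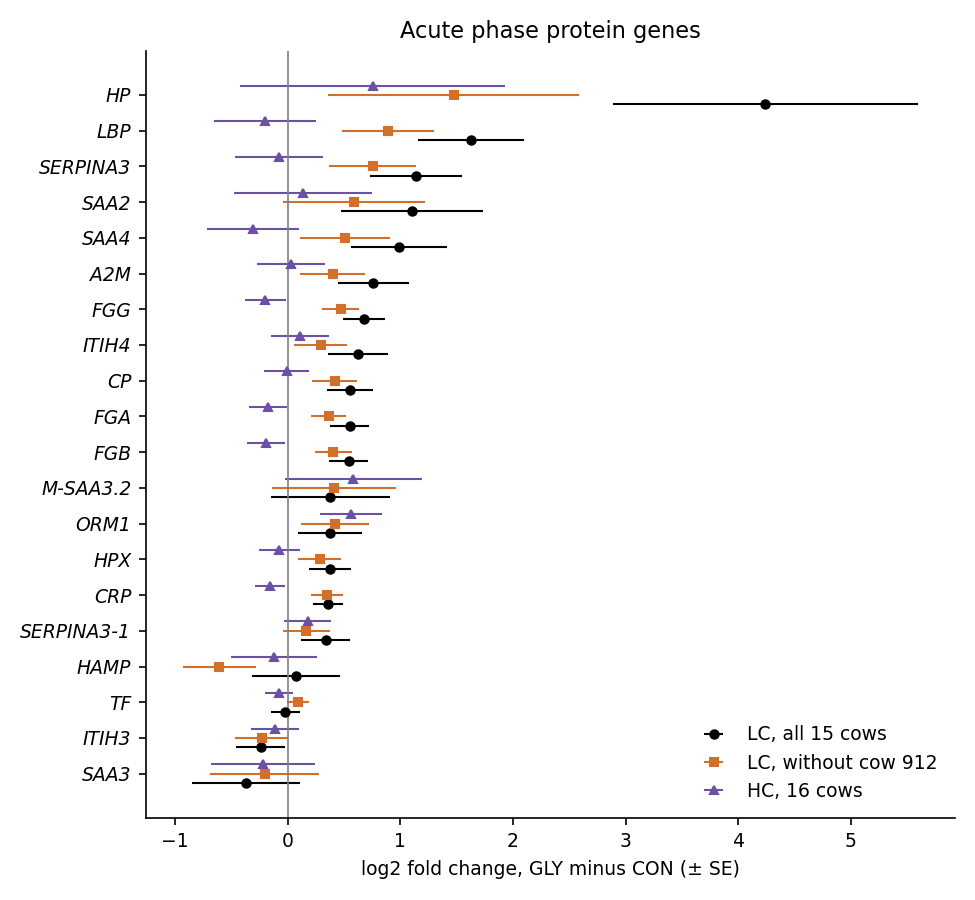
Log2 fold change (GLY minus CON, ± standard error) of the 20 acute phase genes under LC with all 15 cows (black circles), under LC without cow 912 (orange squares) and under HC (purple triangles). With all cows the points reach from -0.37 (SAA3) to 4.24 (HP), and 17 of 20 lie above 0, while 50.7% of all genes tested lie below 0. Without cow 912 HP is at 1.47.

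Complement proteins are plasma proteins that mark and lyse microbes, and hepatocytes secrete most of them. Of 25 complement genes, 4 had an unadjusted p under 0.05, all higher in GLY_LC, against 3.73% of all genes. Of the 25, 21 were positive and 4 negative, while 50.7% of all genes were negative, and the median log2 fold change was 0.12. Under HC, 0 were under 0.05, 7 were positive and the median was -0.07. C4BPB, the beta chain of the C4b-binding protein that restrains complement, was at 91.97 to 156 CPM (median 121) in GLY_LC and 65.4 to 111 CPM (median 94.6) in CON_LC, with a log2 fold change of 0.42 (SE 0.14, unadjusted p = 0.00655) with and 0.49 (0.15, unadjusted p = 0.002395) without cow 912. CD46, a regulator of complement on cell surfaces, was at 167 to 334 CPM against 145 to 243 CPM (0.42, SE 0.13, unadjusted p = 0.00258), and the remaining ones were C4BPA (0.33, unadjusted p = 0.0366) and C5 (0.25, unadjusted p = 0.0477). Of these, C4BPB and CD46 were under 0.05 without cow 912 too, and C4BPB (unadjusted p = 0.00759) also without cows 912, 103 and 166. The interaction with CFP had unadjusted p values of 0.00422 for C4BPB, 0.0101 for CD46 and 0.0105 for C4BPA and passed the adjustment for none. Among 27 interferon-stimulated genes, 1 was under 0.05 and higher, a share near the 3.73% of all genes, and the median was 0.09. It was STAT2, a transcription factor of the interferon response (log2 fold change 0.35, SE 0.14, unadjusted p = 0.0172).

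Cholesterol is made in hepatocytes from acetyl-CoA through mevalonate and squalene, with the genes of this route under the common control of the transcription factor SREBP2. Of 21 genes of cholesterol synthesis and uptake, 7 had an unadjusted p under 0.05, all lower in GLY_LC, against 1.91% of all genes, with 0 called. 19 of the 21 were negative, against 50.7% of all genes, and the median log2 fold change was -0.28. Without cow 912 there were 6 (1.74% of all genes, median -0.29), without CON_LC cows 103 and 166 there were 6 (1.89%), and without all 3 of these cows there were 3 (1.29%, median -0.29). The 7 genes were DHCR7, FDFT1, IDI1, MVK, NSDHL, LSS and SREBF2.

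DHCR7, the last step before cholesterol, was at 42.97 to 113 CPM (median 49.6) in GLY_LC and 56.4 to 157 CPM (median 109.7) in CON_LC (log2 fold change -0.69, SE 0.23, unadjusted p = 0.00622). IDI1, an isomerase of isoprenoid units, was at 92.97 to 197 CPM (median 115) in GLY_LC and 146 to 208 CPM (median 176) in CON_LC (-0.46, SE 0.16, unadjusted p = 0.00856), and FDFT1, the squalene synthase, at 118 to 321 CPM against 189.6 to 387 CPM (-0.56, SE 0.24, unadjusted p = 0.0249). MVK, the mevalonate kinase, was at 31.995 to 59.9 CPM (median 43.1) in GLY_LC and 39.6 to 86.02 CPM (median 52.2) in CON_LC (-0.40, SE 0.17, unadjusted p = 0.0229). For these 4 genes the highest GLY_LC cow lay within the CON_LC range, and the lowest below it. Cow 912, with 169.6 CPM of FDFT1 and 115 CPM of IDI1, lay within the range of the other GLY_LC cows for both, and with 42.97 CPM of DHCR7 it was the lowest of the 15 cows. SREBF2, the gene of SREBP2, had the log2 fold change -0.22 (SE 0.085, unadjusted p = 0.0167) and -0.20 (unadjusted p = 0.0337) without cow 912.

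Under HC, in other cows, 7 of the 21 genes had an unadjusted p under 0.05, all lower in GLY_HC, against 1.36% of all genes, and the median was -0.29. IDI1 (log2 fold change -0.38, unadjusted p = 0.0222) and LSS (-0.34, unadjusted p = 0.01402) were under 0.05 in both comparisons. SQLE, FDPS, MSMO1, CYP51A1 and HSD17B7 were under 0.05 under HC only, although this difference between HC and LC was not called by the interaction test for any gene. The median of the list was thus below 0 under LC and under HC, in cows that the comparisons do not share, and no single gene passed the adjustment in either. The genes are under common control, so they are not separate observations. The list was chosen with earlier results of these data known, and its median was not tested.

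**Figure D5:**
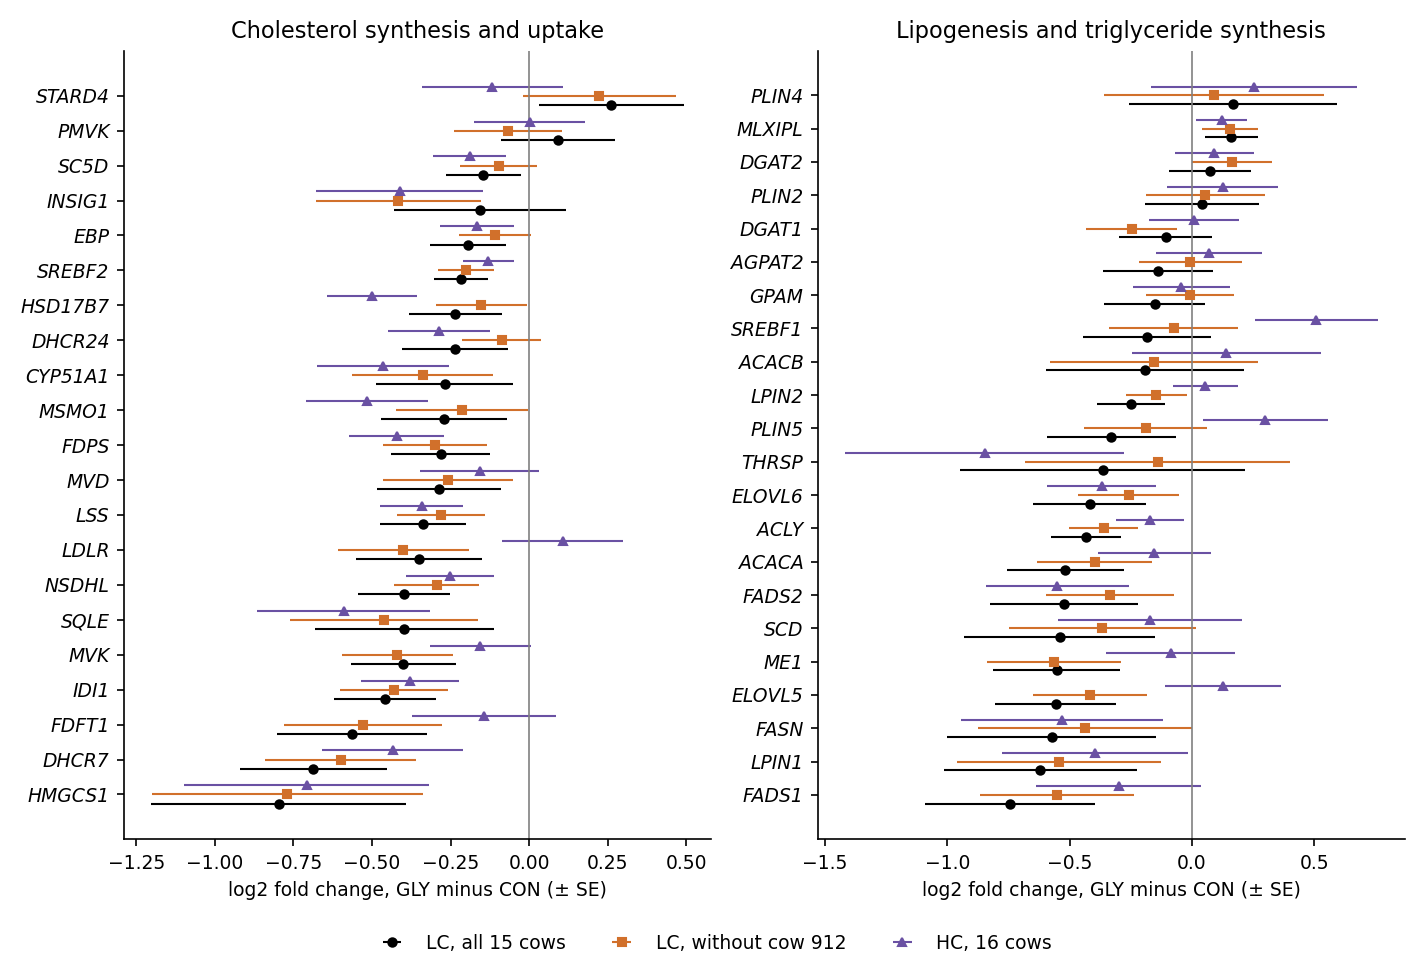
Log2 fold change (GLY minus CON, ± standard error) of the 21 genes of cholesterol synthesis and uptake (left) and the 22 of lipogenesis and triglyceride synthesis (right), under LC with all 15 cows (black circles), under LC without cow 912 (orange squares) and under HC (purple triangles). In the left panel 19 of 21 black points lie below 0, with HMGCS1 lowest at -0.80, and in the right panel 18 of 22, with FADS1 lowest at -0.74. With all cows, 50.7% of all genes tested lie below 0.

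Of 22 genes of lipogenesis and triglyceride synthesis, 5 had an unadjusted p under 0.05, all lower in GLY_LC, against 1.91% of all genes, and the median was -0.35. They were ACACA, the acetyl-CoA carboxylase that commits carbon to fatty acids, the cytosolic malic enzyme ME1, the elongase ELOVL5, the desaturase FADS1 and ACLY, which supplies cytosolic acetyl-CoA. ACACA was at 18.3 to 66.8 CPM (median 27.7) in GLY_LC and 25.9 to 98.7 CPM (median 50.7) in CON_LC (log2 fold change -0.52, SE 0.24, unadjusted p = 0.0382). FADS1 was at 3.29 CPM in cow 912, 7.71 to 34.03 CPM in the other GLY_LC cows and 13.8 to 47.05 CPM in CON_LC (-0.74, SE 0.35, unadjusted p = 0.0401), and ELOVL5 at 56.01, 106 to 233 and 161 to 246 CPM (-0.56, SE 0.25, unadjusted p = 0.0311). For ACACA, FADS1 and ELOVL5 cow 912 was the lowest of the 15 cows. Without it, ACLY (log2 fold change -0.36, unadjusted p = 0.0163) and ME1 (-0.57, unadjusted p = 0.0478) were under 0.05 and lower, against 1.74% of all genes, and the median was -0.22. Without cows 912, 103 and 166, 1 was under 0.05 and lower, against 1.29% of all genes, LPIN1, a phosphatase of triglyceride synthesis (-0.84, unadjusted p = 0.0441). Under HC, 0 of the 22 were under 0.05 (median -0.02). Of 26 genes of fatty acid oxidation and ketogenesis 0 were under 0.05 (median -0.05), and of 15 genes of bile acid synthesis and transport 0 (median -0.08).

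Among genes that handle foreign substances, few had an unadjusted p under 0.05, which 3.73% of all genes had as higher and 1.91% as lower. Of 25 genes of the AHR, xenobiotic sensor and cytochrome P450 list, 1 was higher and 1 lower (median -0.01). The higher one, ENSBTAG00000025748, 1 of 2 genes with the symbol CYP4F2, had 248 reads in cow 912 and 6 in CON_LC together. The lower one was CYP2C18, at 39.6 to 105 CPM against 64.3 to 166 CPM in CON_LC (log2 fold change -0.47, SE 0.22, unadjusted p = 0.0376), with cow 912 the lowest cow and unadjusted p = 0.104 without it. CYP1A1 and CYP1A2, which the receptor AHR induces, had log2 fold changes of -0.15 (SE 0.18) and -0.059 (0.15). Without cow 912, 2 of 24 were under 0.05 and higher, against 1.26% of all genes. They were the other gene with the symbol CYP4F2 and the xenobiotic sensor NR1I2 (0.27, unadjusted p = 0.0196). Without cows 912, 103 and 166, 0 of 24 were under 0.05 in either direction, and the median was 0.0005. Of 29 conjugation enzymes, 1 was lower, the glutathione S-transferase GSTA3 (ENSBTAG00000021516), at 598 to 1645 CPM (median 985) in GLY_LC and 1075 to 1849 CPM (median 1422) in CON_LC (-0.47, SE 0.18, unadjusted p = 0.0115; -0.37, unadjusted p = 0.0383 without cow 912), and the median was -0.05. Transferases of this family share near-identical sequence, and so do P450 genes, so reads may be split between copies.

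Of 29 NRF2 targets and antioxidant enzymes, 5 were under 0.05 and higher, against 3.73% of all genes, and 1 was lower, against 1.91% (median -0.05). The 5 were 4 metallothionein genes, 2 of them with the symbol MT1E, and GPX3, the plasma glutathione peroxidase. MT1A was at 1851 CPM in cow 912, 11.97 to 148 CPM in the other GLY_LC cows and 4.99 to 89.05 CPM in CON_LC, MT2A at 1143, 38.9 to 218 and 44.2 to 135 CPM, and GPX3 at 1383, 28.7 to 203 and 5.82 to 231 CPM. MT1E (ENSBTAG00000038706) was at 73.2 CPM in cow 912 and at most 5.03 CPM in another LC cow. For these 4 genes cow 912 was the highest, and without it the unadjusted p values were 0.434 for MT1A, 0.178 for MT2A, 0.376 for GPX3 and 0.788 for MT1E. The lower one was the glutathione reductase GSR (log2 fold change -0.32, SE 0.15, unadjusted p = 0.0428), and without cow 912, 0 of 28 were under 0.05. NQO1, a standard target of NRF2, had the log2 fold change -0.30 (SE 0.15, unadjusted p = 0.0548).

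Of 21 genes of the ATF4 and endoplasmic reticulum stress list, 2 were under 0.05 and higher (3.73% of all genes) and 1 lower (1.91%; median 0.10). CHAC1, which degrades glutathione and is induced by ATF4, was at 7.49 CPM in cow 912 and at most 0.266 CPM in another LC cow, and XBP1, a transcription factor of secretory cells, at 801 CPM in cow 912, 81.6 to 197 CPM in the other GLY_LC cows and 67.3 to 172 CPM in CON_LC. VLDLR, a lipoprotein receptor, was lower, at 0.651 to 1.72 CPM in GLY_LC against 0.394 to 5.32 CPM (log2 fold change -1.14, SE 0.46, unadjusted p = 0.0183). Without cow 912, 0 were higher, VLDLR was lower (unadjusted p = 0.0126), against 1.74% of all genes, and the median was -0.13.

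Immediate early genes, many of them genes of transcription factors, are switched on by cells within minutes of a stimulus, handling of tissue included. Of 19, 4 were under 0.05 and lower in GLY_LC, against 1.91% of all genes, and the median was -0.20. FOSB was at 0.106 to 1.102 CPM (median 0.257) in GLY_LC and 0.342 to 4.66 CPM (median 1.57) in CON_LC (log2 fold change -2.22, SE 0.64, unadjusted p = 0.00151), and NR4A1 at 0.401 to 1.71 CPM (median 0.822) against 0.783 to 4.68 CPM (median 1.51) (-1.12, SE 0.36, unadjusted p = 0.00385). FOS reached 39.7 CPM in CON_LC cow 166 with a CON_LC median of 2.35 CPM (-1.67, SE 0.73, unadjusted p = 0.0286), and EGR2 was the fourth (-1.36, SE 0.59, unadjusted p = 0.0269). The groups overlapped for all 4. Without CON_LC cows 103 and 166, 1 of the 19 was lower and 1 higher, against 5.89% of all genes in either direction. With cow 912 left out as well, FOSB alone was under 0.05 and lower, against 1.29% of all genes (log2 fold change -1.39, unadjusted p = 0.04404). Of 17 p53 and DNA damage response genes 0 were under 0.05 (median -0.02), and of 19 cell division genes 0 (median 0.000639).

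The carbohydrate and energy lists held few such genes, against 1.91% of all genes that were under 0.05 and lower. Of 16 genes of gluconeogenesis and propionate entry, 1 was lower, PPARGC1A, a coactivator that is raised in fasting (10.4 to 16.7 CPM in GLY_LC, 10.8 to 28.1 CPM in CON_LC, log2 fold change -0.37, SE 0.17, unadjusted p = 0.0384), and the median was -0.04. Of 20 genes of glycolysis and the pentose phosphate route, 2 were lower (median -0.12). Of the 20, 18 were negative, against 50.7% of all genes. The 2 lower genes were PGD, which makes NADPH (21.1 to 39.9 CPM against 26.4 to 63.97 CPM, -0.39, SE 0.14, unadjusted p = 0.0115), and the triose phosphate isomerase TPI1 (73.8 to 175 CPM against 113 to 173 CPM, -0.35, SE 0.13, unadjusted p = 0.0139). Both were under 0.05 without cow 912 as well, with unadjusted p = 0.0251 for PGD and unadjusted p = 0.0492 for TPI1. Of 23 genes of the respiratory chain and ATP synthase 0 were under 0.05 (median -0.04).

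In the marker lists of other cell types, most genes under 0.05 were high in 1 library. Of 9 stellate cell and fibroblast markers, 3 collagen genes were under 0.05 and lower in GLY_LC, against 1.91% of all genes. RGS5 was higher, against 3.73% (median -0.18). COL1A1, a chain of fibrillar collagen, was at 434 CPM in CON_LC cow 103, with a CON_LC median of 6.58 CPM and 4.11 to 22.1 CPM in GLY_LC, and COL1A2 and COL3A1 reached 522 and 1009 CPM in the same cow. Without cows 103 and 166, 0 of the 9 were lower and 2 higher, against 5.89% of all genes in either direction. The pericyte gene RGS5 was at 27.1 CPM in cow 912 and 0.734 to 7.35 CPM in CON_LC. JCHAIN, which joins polymeric antibodies in plasma cells, was the 1 of 6 B lymphocyte and plasma cell markers under 0.05 and higher, against 3.73% of all genes. It was at 158 CPM in cow 912, 6.73 to 30.2 CPM in the other GLY_LC cows and 6.38 to 26.2 CPM in CON_LC (list median 0.08). Of 11 T and NK lymphocyte markers the granzyme GZMA was under 0.05 and lower, against 1.91% of all genes (0.281 to 1.01 CPM against 0.315 to 1.404 CPM, log2 fold change -0.81, unadjusted p = 0.0462). All 11 were negative, against 50.7% of all genes (median -0.34). Without cows 103 and 166 the median of these 11 was -0.08 with 9 negative, without all 3 cows it was -0.05 with 7 negative, and under HC it was 0.10 with 0 negative. No gene was under 0.05 among 10 Kupffer cell and macrophage markers (median 0.03), 5 neutrophil markers (0.23), 8 endothelial (-0.05), 6 bile duct (0.01), 2 pancreas acinar (-0.76), 3 epidermis (0.10) and 3 red blood cell markers (-0.56). Of 8 hepatocyte markers FGB was under 0.05 and higher, against 3.73% of all genes, and the median was -0.06.

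The same contrast under HC, in 16 other cows, had 0 genes called (0%) and 443 (2.90%) at an unadjusted p under 0.05, 235 higher (1.54%) and 208 lower (1.36%). Of the 862 genes under 0.05 between GLY_LC and CON_LC, 391 (45.4%) had a log2 fold change of the same sign under HC, and without cow 912 this held for 195 of 452 (43.1%). The same-sign share was not computed over all genes tested, so neither value is read as agreement or as reversal. The interaction of GLY with CFP was called for 0 genes by edgeR (0%, smallest adjusted p = 0.245, that of GPT2), with 640 genes (4.19%) under 0.05 unadjusted, 356 positive (2.33%) and 284 negative (1.86%), and for 1 gene, GPT2, by DESeq2 with all 31 cows.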

How the data were processed

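Liver RNA was sequenced by the authors as stranded, paired-end mRNA libraries, 1 per cow. Per the labels and methods, reads were aligned with HISAT2 2.1.0 to UMD3.1 (Ensembl release 93) and counted per gene with HTSeq 0.8.0; whether HTSeq used strand is not given in the sources used here, so overlapping and antisense genes are uncertain, as are near-identical gene copies. The deposited raw read counts of 31 cows were used, and the deposited normalized table was not. Cows were grouped by their labels, and cow numbers are those of the labels. Genes with at least 20 reads over the 15 LC cows were kept; 1354 of them have no symbol. A model with 4 groups was fitted to all 31 cows with edgeR 4.0.16 (R 4.3.3, TMM scaling, quasi-likelihood test), since the groups then share 1 estimate of the spread, and the LC, HC and interaction contrasts were tested. Called genes had p under 0.05 and Benjamini-Hochberg adjusted p under 0.1 over all genes tested. The standard error was the log2 fold change divided by the root of the F statistic. DESeq2 1.42.0 and other scalings, filters and cow sets were alternatives. The fits without cows 103 and 166, and without these and cow 912, were added after the data were seen. So was DESeq2 on the LC cows without cow 912. The scripts were tested on simulated data. The 49 pairs of LC cows of the same feeding group differed by far more than sampling noise (chi-square per gene 24.5 to 487).

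34 lists were used, 13 of cell type markers and 21 of pathways. Members and lists were chosen with earlier results of these data known. The members of a list were measured in the same cows, so counts of their signs are not separate observations. Named genes are those called, 2 that the study names, the 8 with the smallest p in each direction without cow 912 and a mean of at least 1 CPM, up to 4 per list with p under 0.05 and the largest log2 fold change, and all transaminases and intestinal markers with reads; other genes are named where a count was small or groups did not overlap, after their values were seen. A result for 1 listed gene and 1 leading gene is not reported here. The number of assigned reads limits the precision of genes with few reads.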

Additional observations from a re-analysis of the deposited data

Results flagged for a closer look

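In 196 sets of values, a gene's level, a summed marker level or the total reads in 1 group, the gap between the most extreme cow and its nearest neighbour was divided by the range of the group; 60 sets lay above Dixon's 95% critical value. Chance flags about 1 in 20 sets of values that were not chosen; many of these genes were named for small p-values or large differences, so the number of sets is a description and is not read against that share. In 39 of the 60 the cow was 912, as the highest GLY_LC cow.

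For cow 912 the share was 1 for FABP2, BCO1, KRT20 and SI, 0.998 for MUC13, 0.995 for ACTG2, 0.994 for CYP4F2, and 0.992 for SMIM24 and CNN1. It was 0.991 for ATP6V1C2, 0.988 for OLFM4, 0.987 for ENSBTAG00000047700, 0.984 for S100G, 0.980 for REG4, 0.975 for CHAC1 and 0.970 for MYH11. For the amino acid genes SLC7A5 and ASNS it was 0.960 and 0.957, and for the metallothioneins MT1E, MT1A and MT2A it was 0.960, 0.926 and 0.838. Further values were 0.949 for VIL1, 0.941 for CCL24, 0.929 for HP, 0.897 for ENSBTAG00000003492, 0.883 for TAGLN, 0.872 for GPX3, 0.847 for GUCY2C, 0.846 for RGS5 and 0.844 for JCHAIN. XBP1 had 0.839, TFF3 0.805, RAD21L1 0.748, LBP 0.715, LGALS4 0.699 and FOS 0.651. The summed markers of intestinal epithelium had 0.930, of smooth muscle 0.915 and of B lymphocytes and plasma cells 0.837.

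In CON_LC, cow 103 was the extreme cow for THBS4 (0.933), COL1A1 (0.908), COL1A2 (0.878), COL3A1 (0.854), CNN1 (0.696), ME1 (0.556) and the summed stellate cell and fibroblast markers (0.836). Cow 166 was it for FOS (0.878), MT1E (0.637), GPT (0.570) and the summed pancreas acinar markers (0.540), and cow 941 for ACACA (0.575). Cow 260 was it for PSPH (0.657), cow 60 for GPX3 (0.650), and cow 169 for REG4 (1, on 1 read), SLC25A15 (0.579) and PPARGC1A (0.527). In GLY_LC, cow 209 was the extreme cow for PSPH (0.706), TPI1 (0.650) and total reads (0.682), and cow 544 for the summed T and NK lymphocyte markers (0.574).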

How the results depend on the processing

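The 10 called genes were 10 with RLE or upper-quartile scaling and with the filter over all 31 cows, and 9 with a filter of at least 1 read. They were 0 with edgeR's own expression filter, with only the 15 LC cows in the fit, with robust dispersion estimates, at an adjusted p under 0.05, and without cows 103 and 166 alone or with 912; DESeq2 gave 4 with 31 cows, 2 with the LC cows and 1 without cow 912. Leaving out 1 cow at a time gave 0 to 41 called genes and 452 to 1147 at p under 0.05: 0 without any CON_LC cow or cow 912, 35 without GLY_LC cow 42, 23 without 102, 36 without 147, 41 without 209, 38 without 544 and 25 without 905. DESeq2 called 1 gene for the interaction with 31 cows. The difference in total reads, 0.21 on the log2 scale as means, was -0.12 as medians (exact permutation p = 0.748).

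DESeq2 by default replaces counts far from their group in groups this large, which can change the fitted values of genes high in 1 cow. Which counts were replaced was not looked up. For FABP2, BCO1, MUC13, CYP4F2 and REG4, with few reads elsewhere, the fitted values are no measure of size. With 31 cows the DESeq2 log2 fold changes were FABP2 -0.49, BCO1 -0.91, MUC13 -0.49, COL1A2 0.036, CNN1 -0.77, MYH11 -0.10, CYP4F2 -0.52 and REG4 -0.13. With the LC cows they were FABP2 -0.50, BCO1 -0.91, SLC7A5 -1.12, MUC13 -0.50, COL1A2 0.0017, CNN1 -0.68, MYH11 -0.058, TAGLN -0.18, CYP4F2 -0.50 and REG4 -0.13. Without cow 912 DESeq2 gave SLC7A5 -1.23, ASNS -0.67, CNN1 -0.71, MYH11 -0.067, TAGLN -0.19 and GOT1 -0.11. With 1 cow left out at a time, the ranges that crossed 0 were -0.098 to 0.18 for GOT1, -0.62 to 0.064 for GPT (above 0 without cow 166) and, below 0 only without cow 912, -1.21 to 0.87 for SLC7A5, -0.66 to 0.28 for ASNS, -0.69 to 4.45 for CNN1, -0.059 to 1.90 for MYH11 and -0.18 to 1.53 for TAGLN. Without cows 103 and 166 the sign changed for THBS4 (1.20), COL1A1 (0.67), COL1A2 (1.02), COL3A1 (0.18), FOS (0.18) and GPT (0.23), and without these and cow 912 for THBS4 (0.55), SLC7A5 (-1.34), ASNS (-0.61), COL1A1 (0.70), COL1A2 (1.005), COL3A1 (0.20) and LGALS4 (-0.066). The cause of these changes was not tested. The pancreas acinar list had no gene left under edgeR's own filter. No paired analysis was possible because the groups share no cow numbers.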
